A study of Homo sapiens with 9 samples.

Results

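Keratins are the intermediate filament proteins of epithelial cells, and the RNA of 8 of them, KRT7, KRT8, KRT80, KRT81, KRT18, KRT19, KRT10 and KRT17, is described here in SKOV3 cells, an established line from a human ovarian carcinoma. They were picked by gene symbol, with earlier results of these data known, and are 8 of the 58735 genes in the table of counts. All 8 passed the filter on low counts that left 16350 genes to test, as did 11 of the 55 protein-coding keratin genes that the table lists.

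The study concerns CDK9, a kinase that phosphorylates RNA polymerase II and so promotes transcript elongation, and a tyrosine of CDK9 that the receptor tyrosine kinase ALK phosphorylates. RNA was sequenced from 3 groups of 3 libraries, all of SKOV3 cells in DMEM with serum: cells with wild-type (WT) CDK9, cells with WT CDK9 that received an ALK inhibitor for 24 h, and cells with Tyr19Phe CDK9 (Y19F in the labels), which carries phenylalanine in place of that tyrosine. For SKOV3 cultures in general, the paper gives the mixed medium DMEM/F12 with fetal bovine serum. The paper describes stable SKOV3 lines in which WT or Tyr19Phe CDK9 was put back into CDK9-depleted cells, but does not state that the sequenced cells were these lines. The inhibitor and dose used for the sequenced cells are not named in the sources used here.

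Levels are given as CPM (counts per 1000000), scaled between libraries by the trimmed mean of M-values (TMM). Total counts were 18939449 to 19731228 in the WT libraries, 18169050 to 20974903 in the ALK inhibitor libraries and 26485891 to 29320184 in the Tyr19Phe libraries. In these libraries 3 counts, taken as the floor, amounted to 0.102 to 0.165 CPM, which covers counting error only. ALK inhibitor replicate 2, with 19944 genes detected, and Tyr19Phe replicate 3, with 20635, held fewer genes than the other 7 libraries, in which 21241 to 22744 were detected. The counts of keratins called are therefore given with and without these 2 libraries. The labels do not say that the 3 libraries of a group came from separate cultures, so the p-values measure only the spread between these libraries. With 3 libraries in each of 2 groups, the smallest two-sided p of an exact permutation test on a single value is 0.1.

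Keratin filaments are built from pairs of one type I (acidic) and one type II (basic to neutral) protein, so a cell needs both kinds. Simple epithelia and the carcinomas that arise from them make mainly KRT8, KRT18, KRT19 and KRT7, and KRT7 and KRT19 serve as markers of many ovarian carcinomas. Type II genes, together with the type I gene KRT18, lie in a cluster on chromosome 12, and the other type I genes lie in a cluster on chromosome 17.

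Of 6 ovarian carcinoma markers, 5 passed the filter. PAX8, a transcription factor of the Mullerian lineage, had 270 ± 6.46 CPM (SD, n = 3) in WT, and ERBB2, a receptor that SKOV3 cells are known to overexpress, had 1800 ± 50.5 CPM (SD, n = 3). WT1, a transcription factor, was at 1.70 ± 1.23 CPM (SD, n = 3) in WT, and MUC16, the antigen CA125, was at 0.158 CPM and did not pass. Of 8 simple epithelium markers, 6 passed the filter, with EPCAM the most abundant at 21.2 ± 1.60 CPM (SD, n = 3) in WT, but CDH1, the epithelial cadherin, was at 0.526 ± 0.322 CPM (SD, n = 3) in WT. Of the markers of other cell types, 0 of 5 for leukocytes, 1 of 4 for endothelium, 2 of 6 for fibroblasts and 3 of 4 for mesothelium passed the filter. The leukocyte list summed to 0.102 to 0.830 CPM and the endothelium list to 0.975 to 4.34 CPM per library. The mesothelium list summed to 117, 137 and 123 CPM in the WT libraries, above the simple epithelium list, and LRRN4 was its most abundant gene. The fibroblast list summed to 110, 111 and 113 CPM in the WT libraries, of which COL1A1 made up 104 CPM, while DCN, LUM, PDGFRA and PDGFRB did not pass the filter. Because whole cultures were sequenced, fewer cells with a keratin and less keratin RNA per cell cannot be told apart.

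Of the 8 keratins, all but KRT81 passed the test in at least 1 comparison, some lower and some higher. With the ALK inhibitor, 2 of 8 were lower than in WT (KRT7 and KRT80) and 1 was higher (KRT19) at an adjusted p under 0.05 in edgeR's quasi-likelihood test with Benjamini-Hochberg adjustment, against 2.73% of all tested genes lower and 1.82% higher. With Tyr19Phe CDK9, 3 of 8 were lower than in WT (KRT19, KRT17 and KRT10) and 2 were higher (KRT8 and KRT18), against 10.4% and 7.61% of all tested genes. Between Tyr19Phe and the ALK inhibitor, 3 of 8 were lower in Tyr19Phe (KRT19, KRT17 and KRT10) and 4 were higher (KRT7, KRT8, KRT80 and KRT18), against 11.1% and 9.57%. The libraries of the 2 groups did not overlap in CPM for 3, 5 and 6 of the 8 keratins in these comparisons, against 19.6%, 32.6% and 34.4% of all tested genes. The comparisons with WT share the WT libraries, and the direct contrast of Tyr19Phe with the ALK inhibitor tests whether these 2 groups differ. The inhibitor was given to cells with WT CDK9, whereas Tyr19Phe cells carry another CDK9, and their libraries held the most counts. Other differences between the cells, or in depth, cannot be told apart from an effect of Tyr19Phe. Without the 2 libraries that held fewer genes, the counts of keratins called were 3, 4 and 5 in place of 3, 5 and 7, since KRT10 lost its calls in Tyr19Phe and KRT17 its call in the direct contrast. Over all genes, the calls without these 2 libraries were 530, 2482 and 2267 in place of 744, 2940 and 3387.

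The median log2 fold change of the 8 keratins was -0.17 with the ALK inhibitor against WT, -0.02 with Tyr19Phe against WT and 0.25 between Tyr19Phe and the ALK inhibitor, beside medians near 0 over all tested genes (-0.00103, 0.00346 and 0.00176). Their median absolute log2 fold change was 0.28, 0.37 and 0.45, beside 0.13, 0.18 and 0.20 over all tested genes. Because the 8 were chosen with earlier results of these data known, these values and the counts called are a description. KRT7 and KRT8 also ranked 35th and 45th in CPM among tested genes in WT, and smaller changes pass the test in abundant genes.

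**Figure D1:**
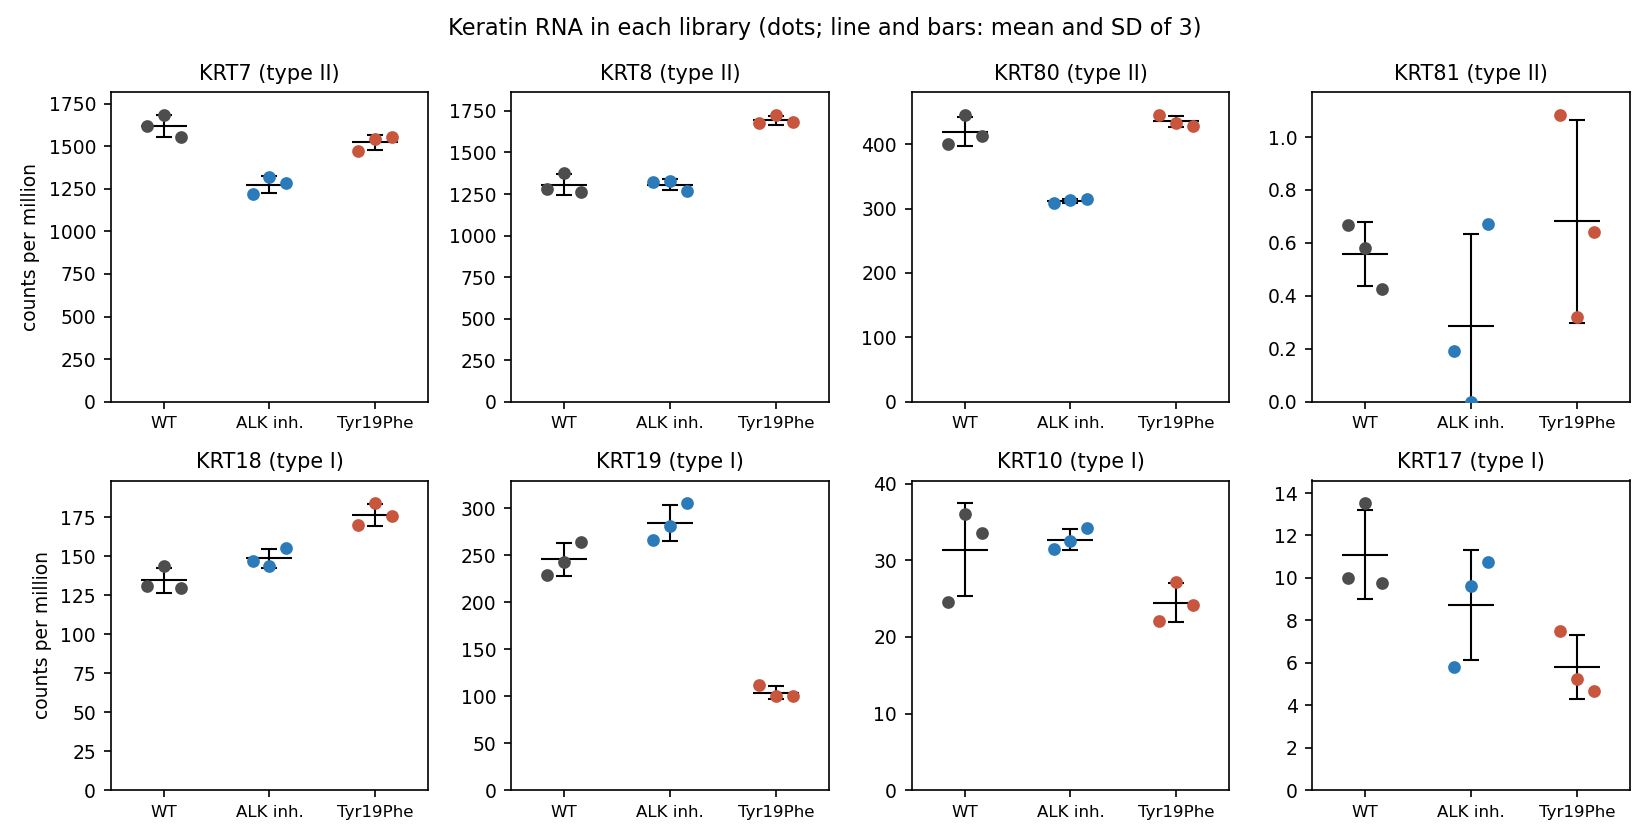
Level of each keratin (vertical axis, CPM, starting at 0) in the 3 libraries of WT, ALK inhibitor and Tyr19Phe cells; dots are libraries, the line is the mean and the bars are the SD of 3. KRT19 lies at 99.9 to 112 CPM in Tyr19Phe and at 230 to 305 CPM in the other 6 libraries, while KRT7 and KRT80 are lowest in the ALK inhibitor libraries.

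Among the type II keratins, KRT7 is a keratin of simple and glandular epithelia (ENSG00000135480, chromosome 12, 52232520 to 52252186, plus strand, GRCh38). KRT7 had 1621, 1683 and 1557 CPM in the WT libraries, 1219, 1317 and 1283 CPM with the ALK inhibitor and 1474, 1541 and 1554 CPM in Tyr19Phe. The ALK inhibitor libraries were the lowest 3 of 9 and overlapped neither other group, and the Tyr19Phe libraries lay just under the WT range. KRT7 fell by 0.35 on the log2 scale with the inhibitor (SE 0.0347, adjusted p = 1.15e-08). In Tyr19Phe its log2 fold change against WT was -0.09 (SE 0.0346, adjusted p = 0.0717), which did not pass the test, although the adjusted p was 0.0340 without WT replicate 3 and 0.0450 with DESeq2. The direct contrast gave 0.26 (SE 0.0347, adjusted p = 9.23e-07), higher in Tyr19Phe than with the inhibitor.

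KRT8 is the type II partner of KRT18 in the first filaments of simple epithelia (ENSG00000170421, chromosome 12, 52897187 to 52949954, minus strand). KRT8 had 1282, 1378 and 1260 CPM in the WT libraries, 1320, 1330 and 1268 CPM with the ALK inhibitor and 1677, 1726 and 1681 CPM in Tyr19Phe. The 3 Tyr19Phe libraries stood above the other 6, among which WT and ALK inhibitor libraries were interleaved. In Tyr19Phe, KRT8 rose by a log2 fold change of 0.38 against WT (SE 0.0338, adjusted p = 5.11e-10) and of 0.38 against the ALK inhibitor (SE 0.0338, adjusted p = 3.67e-10). Its log2 fold change with the inhibitor against WT was -0.001 (SE 0.0339, adjusted p = 0.997), and its sign depended on the scaling, being positive when libraries were scaled by DESeq2 size factors (0.00185), by upper quartiles (0.00924) or by library size alone (0.0247).

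KRT80 is a type II keratin that has been placed near desmosomes in epithelial cells (ENSG00000167767, chromosome 12, 52168996 to 52192000, minus strand). KRT80 had 401, 445 and 412 CPM in the WT libraries, 308, 314 and 314 CPM with the ALK inhibitor and 444, 433 and 428 CPM in Tyr19Phe. The ALK inhibitor libraries lay together below the other 6 (coefficient of variation 1.03%), and the WT range enclosed the Tyr19Phe range. KRT80 fell by 0.43 on the log2 scale with the inhibitor against WT (SE 0.0412, adjusted p = 5.76e-09). It was higher in Tyr19Phe than with the inhibitor, by a log2 fold change of 0.48 (SE 0.0410, adjusted p = 1.35e-10), and Tyr19Phe against WT gave 0.05 (SE 0.0407, adjusted p = 0.426).

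KRT81 is a type II keratin of the hair shaft (ENSG00000205426, chromosome 12, 52285913 to 52291534, minus strand), and its RNA was close to the floor. It had 8 to 13 counts in the WT libraries, 0 to 13 with the ALK inhibitor and 9 to 32 in Tyr19Phe. The groups overlapped in all 3 comparisons, and no difference was detectable at this depth. The adjusted p was 0.706 for the inhibitor against WT, 0.866 for Tyr19Phe against WT and 0.338 for the direct contrast (edgeR).

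Among the type I keratins, KRT18 is the partner of KRT8 (ENSG00000111057, chromosome 12, 52948871 to 52952901, plus strand). KRT18 had 131, 144 and 129 CPM in the WT libraries, 147, 144 and 155 CPM with the ALK inhibitor and 170, 184 and 176 CPM in Tyr19Phe. The Tyr19Phe libraries were the highest 3, and 1 ALK inhibitor library fell within the WT range. KRT18 rose by a log2 fold change of 0.39 in Tyr19Phe against WT (SE 0.0523, adjusted p = 1.01e-06) and of 0.25 against the inhibitor (SE 0.0520, adjusted p = 0.000589). With the inhibitor against WT the log2 fold change was 0.14 (SE 0.0531, adjusted p = 0.148), and without WT replicate 2 it was 0.20 with an adjusted p of 0.0420.

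KRT19 is a type I keratin of simple and ductal epithelia that lacks the usual tail domain (ENSG00000171345, chromosome 17, 41523617 to 41528308, minus strand). KRT19 had 230, 243 and 264 CPM in the WT libraries, 266, 282 and 305 CPM with the ALK inhibitor and 112, 99.9 and 99.9 CPM in Tyr19Phe. The 3 groups did not overlap in any of the 3 comparisons, although the lowest ALK inhibitor library lay just above the highest WT library. In Tyr19Phe, KRT19 fell by 1.24 on the log2 scale against WT (SE 0.0562, adjusted p = 3.86e-17), which is 2.36-fold lower, and by 1.45 against the ALK inhibitor (SE 0.0562, adjusted p = 7.81e-19), which is 2.74-fold lower. Of the 8 keratins, it had the largest change that passed the test in either comparison with Tyr19Phe. With the inhibitor against WT it rose by a log2 fold change of 0.21 (SE 0.0546, adjusted p = 0.0167), a call that was lost without WT replicate 1 (adjusted p 0.180) or without ALK inhibitor replicate 3 (0.191).

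KRT10 is the type I keratin of differentiating epidermal cells (ENSG00000186395, chromosome 17, 40818117 to 40822595, minus strand). KRT10 had 24.6, 36.0 and 33.6 CPM in the WT libraries, 31.5, 32.5 and 34.2 CPM with the ALK inhibitor and 22.1, 27.2 and 24.2 CPM in Tyr19Phe. WT replicate 1 lay among the Tyr19Phe libraries, so those 2 groups overlapped, and the Tyr19Phe and ALK inhibitor libraries did not. KRT10 fell in Tyr19Phe by 0.36 on the log2 scale against WT (SE 0.113, adjusted p = 0.0241) and by 0.42 against the inhibitor (SE 0.113, adjusted p = 0.00718). The first call was lost without WT replicate 2 (adjusted p 0.196), WT replicate 3 (0.118), Tyr19Phe replicate 1 (0.133) or Tyr19Phe replicate 3 (0.0723), and the other without Tyr19Phe replicate 1 (0.0527). With the inhibitor against WT the log2 fold change was 0.06 (SE 0.114, adjusted p = 0.889), and it was -0.09 without WT replicate 1.

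KRT17 is a type I keratin of basal cells and skin appendages that is known to be induced on injury (ENSG00000128422, chromosome 17, 41619441 to 41624842, minus strand). KRT17 had 10.0, 13.5 and 9.78 CPM in the WT libraries, 5.79, 9.61 and 10.7 CPM with the ALK inhibitor and 7.52, 5.23 and 4.68 CPM in Tyr19Phe. The Tyr19Phe libraries were all below the WT libraries, and ALK inhibitor replicate 1 lay among the Tyr19Phe libraries. KRT17 fell by 0.93 on the log2 scale in Tyr19Phe against WT (SE 0.208, adjusted p = 0.00134), which is 1.91-fold lower. The direct contrast, -0.58 (SE 0.209, adjusted p = 0.0472), was lost without WT replicate 1 (adjusted p 0.0602), ALK inhibitor replicate 2 (0.155), ALK inhibitor replicate 3 (0.284), Tyr19Phe replicate 2 (0.155) or Tyr19Phe replicate 3 (0.210). It was also lost with DESeq2 (adjusted p 0.0824), with upper quartile scaling (0.0521) and with only the groups compared (0.0572), and in all in 11 of 22 alternatives. With the inhibitor against WT the log2 fold change was -0.35 (SE 0.207, adjusted p = 0.459).

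**Figure D2:**
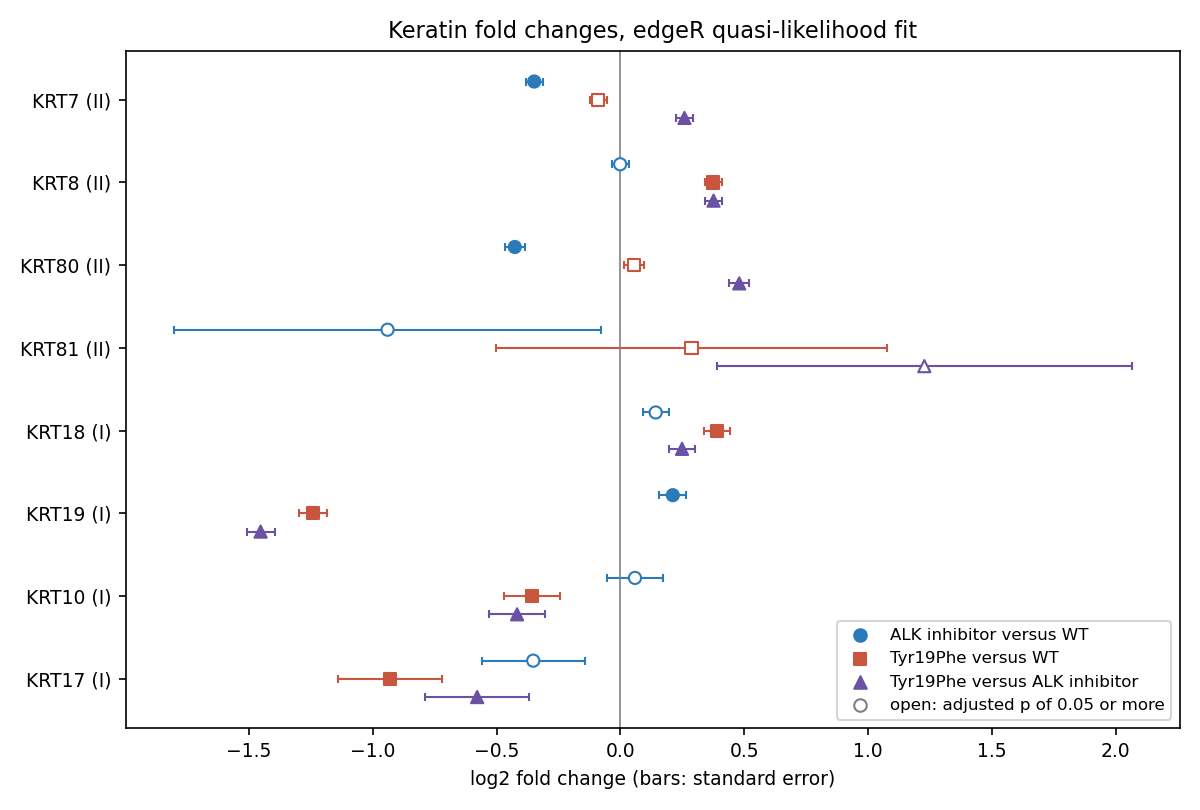
Log2 fold change of each keratin (horizontal axis) in the 3 comparisons, with bars for the standard error of the edgeR fit and open symbols where the adjusted p is 0.05 or more. KRT19 stands farthest left among the filled symbols, at -1.24 and -1.45, and KRT8 and KRT18 lie at 0.38 and 0.39 in Tyr19Phe against WT.

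RefSeq promoter sequences of 300 bases around a gene's start in GRCh38.p14 were matched for 2 of the 8 members, KRT8 and KRT10, and not for KRT7, KRT17, KRT18, KRT19, KRT80 and KRT81. They are shown as the 2 members with a matched sequence. In Tyr19Phe against WT, KRT8 was higher and KRT10 lower, the KRT10 call being one that single libraries ended, as given above. Both are read 5′ to 3′ on the minus strand, KRT8 from chr12:52926420-52926719 and KRT10 from chr17:40822565-40822864. Capitals mark matches, on either strand, to any of 5 motifs, and no marked match overlaps another. The motif called the TATA box was searched as TATAAA. For the motif known as the GC box, GGGCGG was searched. The so-called CCAAT box was searched by those 5 letters alone. CACCC was taken as the motif of KLF factors, and the motif of the factor AP-1 was spelled TGANTCA with any base at N.
KRT8: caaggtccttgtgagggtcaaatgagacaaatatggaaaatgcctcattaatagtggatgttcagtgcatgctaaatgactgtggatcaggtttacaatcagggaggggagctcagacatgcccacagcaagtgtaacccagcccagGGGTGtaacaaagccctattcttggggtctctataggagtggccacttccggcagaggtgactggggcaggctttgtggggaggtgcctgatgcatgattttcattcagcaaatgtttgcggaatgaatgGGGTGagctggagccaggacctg
KRT10: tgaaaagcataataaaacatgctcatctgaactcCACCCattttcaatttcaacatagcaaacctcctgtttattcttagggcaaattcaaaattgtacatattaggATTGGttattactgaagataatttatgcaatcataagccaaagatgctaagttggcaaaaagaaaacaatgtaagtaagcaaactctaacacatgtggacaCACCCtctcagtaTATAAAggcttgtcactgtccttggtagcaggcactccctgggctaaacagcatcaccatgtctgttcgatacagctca
The KRT8 window held 2 matches to the KLF motif and none to the other 4 motifs. The KRT10 window held 1 match to the TATA box, 1 to the CCAAT box and 2 to the KLF motif. Of 35116 RefSeq promoters of 300 bases, 11.5% held the TATA box, 45.0% the GC box, 34.6% the CCAAT box, 59.9% the KLF motif and 7.71% the AP-1 motif. A match is a description of the letters and says nothing of whether a factor binds there. The KRT8 window belongs to a start that lies 21393 bases from the start of the Ensembl canonical KRT8 transcript, and counts per gene do not tell which start was used. The KRT10 window belongs to the start of the canonical transcript.

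The order of the keratins was compared per kilobase (kb), because longer genes collect more counts. With the gene lengths listed in the table, KRT7 was the highest of the 8 in WT at 396 CPM per kb, followed by KRT8 at 190, KRT19 at 105, KRT80 at 96.4, KRT18 at 41.9, KRT10 at 14.6, KRT17 at 3.55 and KRT81 at 0.289 CPM per kb. In the WT libraries, KRT19 and KRT80, neighbours in that order, had SDs of 7.42 and 5.31 CPM per kb, and although KRT19 was the higher of the 2 in each library, its lowest value, 98.3, was below the highest of KRT80, 102.4 CPM per kb. Per kb of canonical transcript they were farther apart, at 177 ± 12.5 and 108 ± 5.97 CPM (SD, n = 3). In Tyr19Phe, KRT80 at 100.1 CPM per kb and KRT18 at 54.9 CPM per kb stood above KRT19 at 44.5 CPM per kb. With the ALK inhibitor, KRT19 was at 122 and KRT80 at 71.8 CPM per kb.

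The distance between KRT7 and KRT8 depended on which gene length was used. The listed lengths count all exons of a gene, 6881 bases for KRT8 against 1784 bases for its Ensembl canonical transcript, and 4093 against 1625 bases for KRT7. Per kb of canonical transcript, KRT7 had 997 CPM and KRT8 733 CPM in WT, 783 and 732 CPM with the ALK inhibitor, and 937 and 950 CPM in Tyr19Phe, and in Tyr19Phe that difference was within the spread (ratio of KRT7 to KRT8 0.987 ± 0.0256, SD, n = 3). In CPM with no length, KRT7 ranked 35th and KRT8 45th of the 16350 tested genes in WT, 46th and 42nd with the inhibitor, and 38th and 30th in Tyr19Phe. KRT19 ranked 760 in WT, 594 with the inhibitor and 2298 in Tyr19Phe.

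Summed over the 8 genes, keratin RNA was 3770 ± 152 CPM (SD, n = 3) in WT, 3366 ± 65.4 CPM with the ALK inhibitor and 3965 ± 54.6 CPM in Tyr19Phe. Those sums amounted to 0.372% ± 0.0144, 0.339% ± 0.00630 and 0.399% ± 0.00554 of the counts of tested genes. The ALK inhibitor libraries lay below all WT libraries in the sum, and 1 of the 3 WT libraries reached into the range of the Tyr19Phe libraries (exact permutation p = 0.2). In the percentage the 3 groups did not overlap (exact permutation p = 0.1 in each comparison), with 0.389% in the highest WT library and 0.394% in the lowest Tyr19Phe library.

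The balance between type II and type I keratin RNA was on opposite sides of WT in the 2 other groups. The ratio of summed type II to summed type I CPM per kb was 4.39, 4.20 and 3.83 in the WT libraries, 3.18, 3.20 and 2.88 with the ALK inhibitor and 6.23, 6.36 and 6.56 in Tyr19Phe. The groups did not overlap, and the two-sided exact permutation p was 0.1 in each of the 3 comparisons, the smallest that 3 against 3 can give. With the inhibitor, type II RNA was 573 ± 13.5 CPM per kb (SD, n = 3) against 682 ± 28.7 in WT, and type I RNA was 186 ± 11.2 against 165 ± 10.1 CPM per kb. In Tyr19Phe, type I RNA was 113 ± 2.13 CPM per kb and type II RNA was 719 ± 10.8 CPM per kb (SD, n = 3). Per kb of canonical transcript, the ratio was 6.26 in WT, 4.84 with the inhibitor and 9.30 in Tyr19Phe, so its order was the same and its size larger.

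Within type I, KRT19 stood above KRT18 per kb in WT and ALK inhibitor libraries and below it in Tyr19Phe libraries. KRT19 made up 64.0%, 61.3% and 65.7% of type I CPM per kb in the WT libraries, 64.7%, 65.7% and 65.9% with the ALK inhibitor and 42.2%, 37.4% and 38.8% in Tyr19Phe. The Tyr19Phe shares were all below the other 6, while the WT and ALK inhibitor shares overlapped (exact permutation p = 0.2, and 0.1 for both comparisons with Tyr19Phe). KRT18 made up 25.4% ± 1.74 (SD, n = 3) of type I in WT, 24.9% ± 0.933 with the inhibitor and 48.8% ± 1.86 in Tyr19Phe. The ratio of KRT19 to KRT18 in CPM per kb was 2.52 ± 0.256 (SD, n = 3) in WT, 2.63 ± 0.123 with the inhibitor and 0.812 ± 0.0824 in Tyr19Phe, and per kb of canonical transcript it was 1.86, 1.94 and 0.599.

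Within type II, the ratio of KRT7 to KRT8 was lower than in WT in both other groups. The ratio of KRT7 to KRT8 in CPM per kb was 2.09 ± 0.0366 (SD, n = 3) in WT, 1.64 ± 0.0774 with the ALK inhibitor and 1.51 ± 0.0393 in Tyr19Phe. Per kb of canonical transcript it was 1.36, 1.07 and 0.987. Neither group overlapped WT in that ratio (exact permutation p = 0.1 for each), but with the inhibitor KRT7 alone of the 2 genes passed the test, and in Tyr19Phe KRT8 alone passed, while the KRT7 libraries also lay below the WT range there. The partners KRT8 and KRT18 kept closer to each other, although reads shared by these overlapping genes were not separated. Their ratio in CPM per kb was 4.54 ± 0.0539 (SD, n = 3) in WT, 4.49 ± 0.112 in Tyr19Phe and 4.11 ± 0.261 with the inhibitor, and per kb of canonical transcript it was 7.69, 7.60 and 6.97. Tyr19Phe overlapped WT in the KRT8 to KRT18 ratio (exact permutation p = 0.6), and the ALK inhibitor libraries were below the WT libraries (exact permutation p = 0.1).

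**Figure D3:**
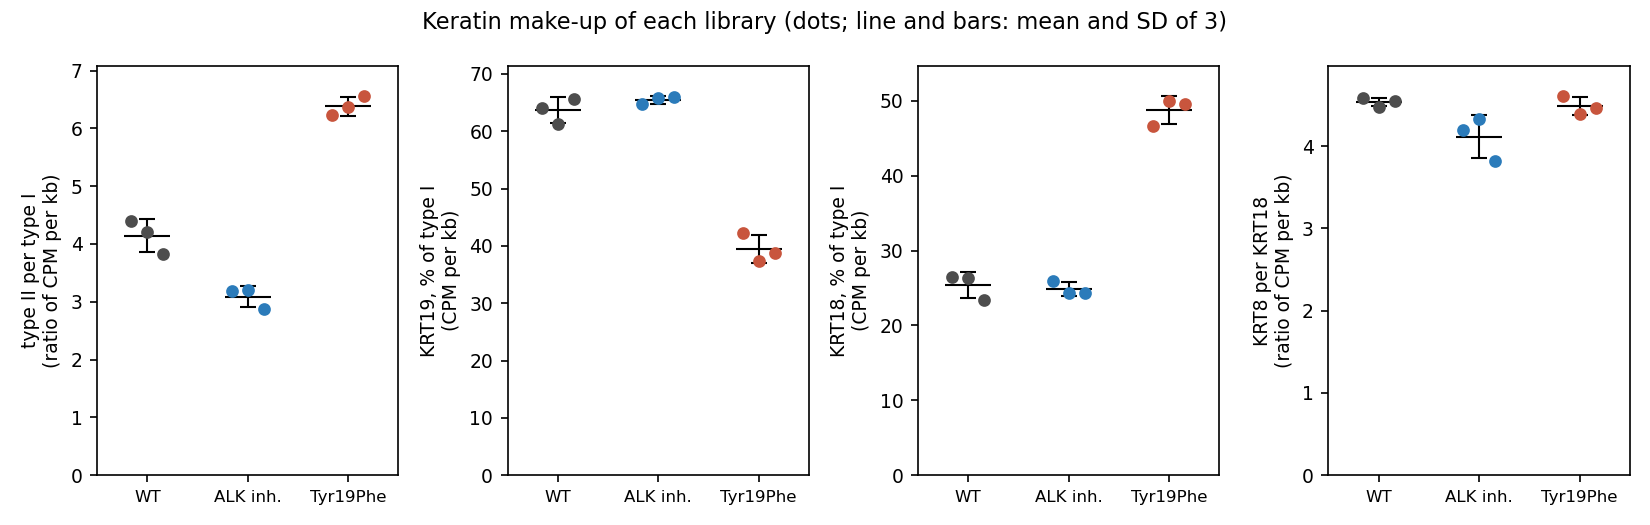
Make-up of keratin RNA in each library from CPM per kb of listed gene length: the type II to type I ratio, KRT19 and KRT18 as a percentage of type I, and the KRT8 to KRT18 ratio (vertical axes from 0; dots are libraries, line and bars are mean and SD of 3). KRT19 is 63.7% of type I in WT and 39.5% in Tyr19Phe, and KRT18 is 25.4% and 48.8%.

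Over the 9 libraries, the 2 keratins with the most similar profiles were KRT8 and KRT18, whose centred log2 CPM differed by 0.0602 on average in absolute value, followed by KRT7 and KRT80 at 0.0856. The KRT8 and KRT18 genes overlap and share sequence, and the part of shared reads in their likeness was not tested. Over both comparisons with WT, the smallest adjusted p of the 8 was that of KRT19 in Tyr19Phe, so the KRT19 profile was compared in the same way with those of the 9775 genes whose mean was 10 CPM or more. Among the most similar genes were TNNT1, a troponin of slow muscle (0.0708), RBM47, an RNA-binding protein (0.0897), SPP1, the secreted protein osteopontin (0.114), and RTN1, a reticulon of the endoplasmic reticulum (0.127). Since these genes were chosen for having the KRT19 profile over the same libraries, their values are a description and no test is given. TNNT1 had 36.3 CPM in WT, 36.6 CPM with the ALK inhibitor and 14.4 CPM in Tyr19Phe, a log2 fold change of -1.34 against WT. The log2 fold changes in Tyr19Phe against WT were -1.30 for RBM47, -1.03 for RTN1 and -1.11 for SPP1, and SPP1 had 0.48 with the inhibitor.

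Outside the 8 members, 3 more keratin genes of the table passed the filter. KRT5, the type II keratin of basal epithelial cells, had 7.19 ± 1.46 CPM (SD, n = 3) in WT, 6.26 ± 1.42 CPM with the ALK inhibitor and 1.89 ± 0.616 CPM in Tyr19Phe, and the Tyr19Phe libraries were below the other 6. KRT5 fell in Tyr19Phe by 1.92 on the log2 scale against WT (SE 0.261, adjusted p = 1.37e-06) and by 1.71 against the inhibitor (adjusted p = 7.73e-06), on 936 counts in all. KRT15, a type I keratin of basal cells, and KRT86, a hair keratin, lay between 0 and 2.49 CPM in every library and did not pass the test in any comparison. The other 44 protein-coding keratins had at most 20 counts in a library and 88 in all, and 29 of them had no count in any library. KRT14, the usual type I partner of KRT5, was the one with 88 counts.

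Some keratin counts may hold reads of other genes, since keratin genes overlap, share sequence and have many pseudogenes, and the sources used here do not state whether counting was stranded. KRT8 and KRT18 lie on opposite strands and overlap by 1084 bases in the table's coordinates. The read length is not given in the sources used here, so exact copies were counted for windows of 2 sizes. In the transcripts of the reference annotation, 18.5% of the 100-base windows of the canonical KRT18 transcript had an exact copy in KRT8, and 7.12% of the KRT8 windows had one in another gene. Of the KRT81 windows, 30.3% had a copy in other genes, chiefly KRT86, and of the KRT7 windows 8.32% had one in the antisense gene KRT7-AS. None of the KRT10, KRT19 or KRT80 windows of 100 bases had such a copy. Windows of 50 bases were copied more often: 52.8% of the KRT18 windows, 44.6% of KRT81, 39.2% of KRT8, 18.3% of KRT17 and 11.7% of KRT7 had a copy in another gene, but 1.79% of KRT19, 0.669% of KRT10 and 0.418% of KRT80. KRT8 had 50 pseudogene rows with 1589 counts, 0.541% of its own 293814, and KRT18 had 67 with 319 counts, 1.02% of its own 31282. When the counts of pseudogenes and near copies were added to each member, 3, 5 and 7 keratins were called, as without them. Pseudogenes held at most 1.02% of a member's own counts, so adding them could move little. Such sums also do not part reads of KRT8 from those of KRT18. Over all genes, 745, 2940 and 3385 were called in the fit with these counts added.

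KRT7-AS, transcribed opposite to KRT7, had 24.7 ± 4.04 CPM (SD, n = 3) in WT, 15.7 ± 1.70 CPM with the ALK inhibitor and 18.6 ± 2.49 CPM in Tyr19Phe. KRT7-AS fell by 0.66 on the log2 scale with the inhibitor (SE 0.132, adjusted p = 0.00141), in the direction of KRT7. It lies within KRT7, which had 1620 CPM in WT, and the part of KRT7 reads in the KRT7-AS counts was not tested. In Tyr19Phe, KRT7-AS was lower than in WT by a call (log2 fold change -0.41, adjusted p = 0.0224) that was lost without WT replicate 1 (adjusted p 0.251), Tyr19Phe replicate 2 (0.0697) or Tyr19Phe replicate 3 (0.145). TMEM99, which overlaps KRT10 by 3490 bases on the other strand, KRT87P, which overlaps KRT7, and LINC00592, which spans KRT80, did not pass the test in any comparison.

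Genes near the keratins were also measured. Around KRT8, 186 tested genes other than keratins within 5 Mb on chromosome 12 had a median log2 fold change of 0.04 with the ALK inhibitor and 0.01 in Tyr19Phe, beside 0.38 for KRT8 in Tyr19Phe. Around KRT19, 197 such genes on chromosome 17 had medians of -0.02 and -0.01, beside -1.24 for KRT19 in Tyr19Phe. CDK9 had 48.6 CPM in WT, 45.6 CPM with the inhibitor and 55.0 CPM in Tyr19Phe. Its adjusted p (edgeR) was 0.665 with the inhibitor and 0.106 in Tyr19Phe against WT. The direct contrast gave a log2 fold change of 0.27 (adjusted p = 0.00961), lost without ALK inhibitor replicate 1 (0.0541) or Tyr19Phe replicate 3 (0.0794). Counts per gene do not tell RNA of the cells' own CDK9 gene from RNA of an introduced CDK9. ALK did not pass the filter on low counts, with at most 0.267 CPM in any library.

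Of the 8 markers of simple epithelium, 3 of 6 tested were lower in Tyr19Phe than in WT and 0 higher (edgeR; 0 higher at an unadjusted p under 0.05, and 0 with DESeq2; median log2 fold change -0.61), against 10.4% and 7.61% of all tested genes. The summed level of the 8 markers was 59.8, 62.8 and 70.8 CPM in the WT libraries, 55.2, 62.0 and 59.2 CPM with the ALK inhibitor and 44.3, 42.6 and 42.4 CPM in Tyr19Phe, so the Tyr19Phe libraries were below the other 6. EPCAM fell by 0.82 on the log2 scale in Tyr19Phe against WT (adjusted p = 1.76e-05), CLDN3 by 1.39 (adjusted p = 0.00126) and ESRP2 by 0.40 (adjusted p = 0.0280). The ESRP2 call was lost without WT replicate 2 (adjusted p 0.0669), WT replicate 3 (0.130), Tyr19Phe replicate 1 (0.114) or Tyr19Phe replicate 3 (0.0973). The other tested markers had log2 fold changes of -0.96 for CLDN4 (adjusted p = 0.0503, and 0.0435 without ALK inhibitor replicate 1 or 0.0467 without ALK inhibitor replicate 2), -0.33 for MUC1 (adjusted p = 0.150) and -0.14 for CDH1 (adjusted p = 0.935). With the inhibitor 0 were called (edgeR, 2 lower at an unadjusted p under 0.05, and 0 with DESeq2). In the direct contrast EPCAM (-0.80, adjusted p = 2.16e-05) and CLDN4 (-1.09, adjusted p = 0.0206) were lower in Tyr19Phe. This CLDN4 call was lost without ALK inhibitor replicate 3 (0.205) or Tyr19Phe replicate 1 (0.0762). Of all tested genes, 2.73% were lower and 1.82% higher with the inhibitor and 11.1% and 9.57% in the direct contrast. CLDN7 and ESRP1 did not pass the filter, and CLDN7 was at 0.386 CPM in WT and 0.480 CPM in Tyr19Phe. The mesothelium list summed to 83.3 to 88.8 CPM in the Tyr19Phe libraries and 106 to 137 CPM in the other 6, and the fibroblast list to 39.1 to 52.0 and 110 to 162 CPM. The endothelium list lay the other way, at 3.29 to 4.34 CPM in the Tyr19Phe libraries and 0.975 to 2.62 CPM in the other 6. KDR, its 1 tested gene, did not pass in Tyr19Phe against WT (log2 fold change 0.73, adjusted p = 0.251). The part of these markers in the keratin differences was not tested.

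Keratin filaments attach to desmosomes through plakin and armadillo proteins. Of 14 desmosome genes, 9 passed the filter. With the ALK inhibitor 2 were lower and 2 higher than in WT (median log2 fold change 0.08), in Tyr19Phe 3 were lower and 1 higher than in WT (median -0.13), and in the direct contrast 4 were lower and 3 higher in Tyr19Phe (median -0.05). Over all tested genes the shares lower and higher were 2.73% and 1.82% with the inhibitor, 10.4% and 7.61% in Tyr19Phe against WT and 11.1% and 9.57% in the direct contrast. The 3 lower in Tyr19Phe against WT were DSG2, DSC3 and PERP, a membrane protein of desmosomes, and without Tyr19Phe replicate 3 DSC3 alone was left. With each of the 9 libraries left out in turn, DSG2 kept its call in 5 of 9 fits (adjusted p up to 0.154), DSC3 in 8 (up to 0.0770) and PERP in 3 (up to 0.337). Of the other calls, DSG2 kept its rise with the inhibitor in 6 of 9 fits (up to 0.0675), and in the direct contrast PKP4 kept its call in 4 (up to 0.105), PERP in 5 (up to 0.301) and DSC2 in 8 (up to 0.0662). DSC2, a desmocollin, had -0.31 in Tyr19Phe against WT (adjusted p = 0.0658, and 0.0160 without WT replicate 2). JUP, plakoglobin, rose by a log2 fold change of 0.92 in Tyr19Phe (adjusted p = 2.40e-12) and of 0.31 with the inhibitor (adjusted p = 0.00373). The latter call was lost when ALK inhibitor replicate 2 was left out (adjusted p 0.0600). PKP2, a plakophilin, fell by 0.84 on the log2 scale with the inhibitor (adjusted p = 4.83e-08), as KRT7 and KRT80 did, and in Tyr19Phe against WT it had -0.24 (adjusted p = 0.0558, and 0.0355 without Tyr19Phe replicate 1). The cadherins DSG2 and DSC3 were lower in Tyr19Phe than with the inhibitor, by log2 fold changes of -0.29 and -0.50 (adjusted p = 1.71e-06 and 0.00135). DSP, the desmoplakin that binds keratins directly, had 455 CPM in WT, 466 CPM with the inhibitor and 460 CPM in Tyr19Phe and did not pass the test in any comparison.

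All 10 plakin and hemidesmosome genes passed the filter, with 2 lower and 1 higher with the ALK inhibitor against WT (median 0.07), 2 lower and 3 higher in Tyr19Phe against WT (median -0.01), and 3 lower and 1 higher in the direct contrast (median -0.08). These counts stand beside 2.73% lower and 1.82% higher, 10.4% and 7.61%, and 11.1% and 9.57% of all tested genes in the same order. PPL, periplakin, had log2 fold changes of -0.35 in Tyr19Phe against WT (adjusted p = 0.0665) and -0.31 in the direct contrast (adjusted p = 0.101), and without Tyr19Phe replicate 3 it passed in both (0.0166 and 0.0259), as it did in the former without WT replicate 2 (0.0437). PLEC, plectin, fell by 0.17 on the log2 scale with the inhibitor against WT (adjusted p = 0.000962). In Tyr19Phe against WT PLEC had -0.09 (adjusted p = 0.0503) and passed without WT replicate 3 (0.00596) or ALK inhibitor replicate 3 (0.0494). The rise of COL17A1, a collagen of the hemidesmosome, in Tyr19Phe against WT (adjusted p = 0.0176) was lost without WT replicate 1 (0.135) or Tyr19Phe replicate 2 (0.134). ITGB4, the integrin subunit that links keratins to the hemidesmosome, fell by 0.57 on the log2 scale with the inhibitor (adjusted p = 1.97e-06) and by 0.89 in Tyr19Phe (adjusted p = 7.80e-11). Its partner ITGA6 rose, by log2 fold changes of 0.28 and 0.33 (adjusted p = 5.50e-05 and 7.03e-07). The linkers MACF1 and DST were lower in Tyr19Phe than with the inhibitor, by log2 fold changes of -0.22 and -0.21 (adjusted p = 9.55e-05 and 0.000269).

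Of 15 other intermediate filament genes, 9 passed the filter, with 1 lower and 2 higher with the ALK inhibitor against WT (median -0.11), 3 lower and 1 higher in Tyr19Phe against WT (median -0.11), and 2 lower and 2 higher in the direct contrast (median -0.05). The shares of all tested genes were 2.73% lower and 1.82% higher, 10.4% and 7.61%, and 11.1% and 9.57% in these comparisons. Several of these calls were lost with 1 library left out. The 1 lower with the inhibitor, the nuclear lamin LMNB1 (adjusted p = 0.0435), kept its call in 0 of 9 such fits (0.0525 to 0.238), and VIM, 1 of the 2 higher (adjusted p = 0.0179), in 4 of 9 (up to 0.0984). PRPH, peripherin, was called lower in Tyr19Phe against WT (adjusted p = 0.0292) and in the direct contrast (0.0363), and kept these calls in 2 of 9 fits (up to 0.162) and 1 of 9 (up to 0.136). Calls were gained with the inhibitor against WT by LMNA without WT replicate 2 (adjusted p 0.0346, from 0.343) and LMNB2 without WT replicate 3 (0.0499, from 0.0590), and in the direct contrast by BFSP1 without Tyr19Phe replicate 1 (0.0438, from 0.192). VIM, the vimentin of mesenchymal and many carcinoma cells, had 1146 CPM in WT, 1245 CPM with the inhibitor and 1493 CPM in Tyr19Phe, and its log2 fold change in Tyr19Phe against WT was 0.38 (adjusted p = 5.88e-11), beside 0.38 for KRT8. NES, nestin, rose with the inhibitor and fell in Tyr19Phe, by log2 fold changes of 0.53 and -0.56 (adjusted p = 8.27e-06 and 1.47e-06), the directions KRT19 took. LMNB2, a nuclear lamin, was higher in Tyr19Phe than with the inhibitor at an adjusted p of 0.0152, a call lost without ALK inhibitor replicate 3 (0.0714) or Tyr19Phe replicate 2 (0.0787). SYNM, synemin, had a log2 fold change of -0.22 in Tyr19Phe against WT (adjusted p = 0.0154), a call lost without WT replicate 1 (0.0855), WT replicate 3 (0.0507), Tyr19Phe replicate 1 (0.0766) or Tyr19Phe replicate 3 (0.0719).

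Of 12 keratin partner proteins, 12 passed the filter. HSPB1, a small heat shock protein that binds intermediate filaments, rose by log2 fold changes of 0.21 with the ALK inhibitor and 0.23 in Tyr19Phe (adjusted p = 0.000400 and 3.71e-05). With the inhibitor 1 was lower and 1 higher than in WT (median 0.02). In Tyr19Phe against WT 2 were higher and 0 lower (edgeR; 1 lower at an unadjusted p under 0.05, and 0 lower with DESeq2; median -0.00251), and in the direct contrast 3 were higher and 0 lower (edgeR; 2 lower at an unadjusted p under 0.05, and 1 with DESeq2; median 0.06). Those 3, TRADD, SFN and OGT, all lost their calls in the direct contrast without ALK inhibitor replicate 3 (adjusted p 0.117, 0.129 and 0.122), which left 0. Of all tested genes, 2.73% were lower and 1.82% higher with the inhibitor, 10.4% and 7.61% in Tyr19Phe against WT, and 11.1% and 9.57% in the direct contrast. TCHP, trichoplein, gained calls without Tyr19Phe replicate 1 in Tyr19Phe against WT (adjusted p 0.0203, from 0.0987) and in the direct contrast (0.0321, from 0.139). The call of OGT, which adds a sugar to keratins, with the inhibitor against WT (log2 fold change -0.22, adjusted p = 0.00608) was lost without WT replicate 1 (0.0567) or ALK inhibitor replicate 1 (0.0516). That of TRADD, a death receptor adaptor, in Tyr19Phe against WT (0.46, adjusted p = 0.0290) was lost without WT replicate 2 (0.223), Tyr19Phe replicate 1 (0.0910) or Tyr19Phe replicate 2 (0.138). That of SFN, a 14-3-3 protein, in the direct contrast (0.17, adjusted p = 0.0190) was also lost without Tyr19Phe replicate 2 (0.209).

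Of 15 epithelial transcription factors, 9 passed the filter. With the ALK inhibitor 0 were called (edgeR; 3 at an unadjusted p under 0.05, and 0 with DESeq2; median log2 fold change -0.05). In Tyr19Phe 2 were lower and 1 higher than in WT (median 0.05), and 2 were lower and 2 higher than with the inhibitor (median 0.03). The shares of all tested genes lower and higher were 2.73% and 1.82%, 10.4% and 7.61%, and 11.1% and 9.57% in the 3 comparisons. ELF3, an ETS factor of epithelia, had a log2 fold change of -0.68 in Tyr19Phe against WT (adjusted p = 0.0653, and 0.0446 without ALK inhibitor replicate 2 or 0.0457 without Tyr19Phe replicate 1). KLF4, a regulator of epithelial differentiation, rose by a log2 fold change of 1.06 in Tyr19Phe against WT (adjusted p = 3.39e-06). GRHL1, a grainyhead factor, fell by 2.15 from 2.01 to 0.449 CPM (adjusted p = 0.00395), and SP3 by 0.26 (adjusted p = 0.000170). In the direct contrast GRHL1, 1 of the 2 lower, had an adjusted p of 0.0424 and kept its call in 2 of 9 fits with 1 library left out (up to 0.148). TFAP2A was higher in Tyr19Phe than with the inhibitor (log2 fold change 0.25, adjusted p = 0.00169). Of 12 genes of the cornified envelope, the protein shell of epidermal cells in which KRT10 is abundant, TGM1 alone passed the filter, at 7.89 CPM in WT (adjusted p = 0.0632 with the inhibitor, 0.591 in Tyr19Phe and 0.105 in the direct contrast), and 8 of the 12 had no count in any library.

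**Figure D4:**
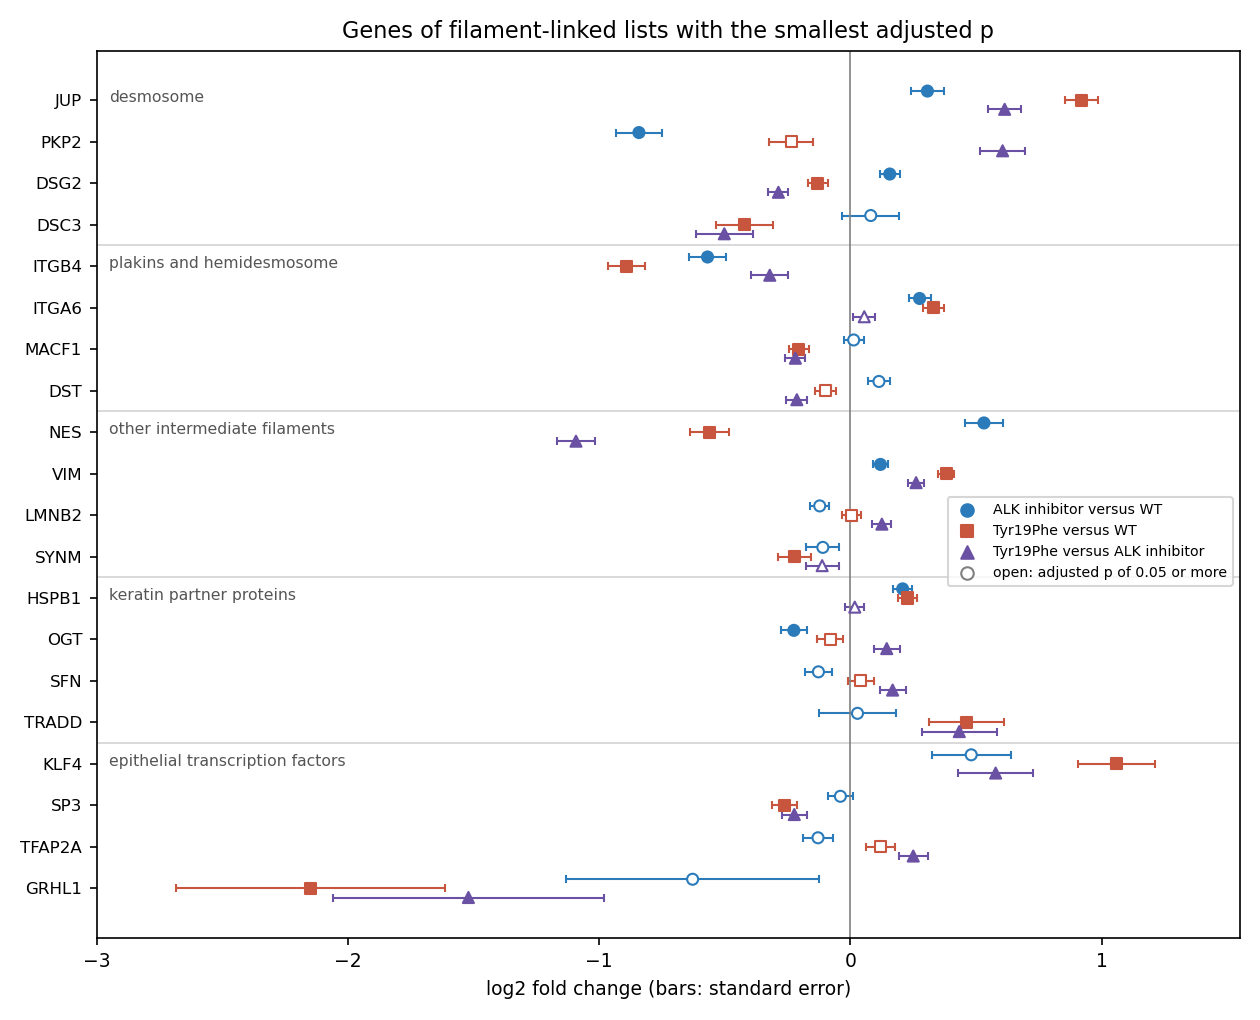
Log2 fold change (horizontal axis, bars for the standard error of the edgeR fit) of up to 4 genes of each of 5 lists with the smallest adjusted p, with open symbols where the adjusted p is 0.05 or more. NES lies at 0.53 with the ALK inhibitor and -0.56 in Tyr19Phe against WT, and JUP at 0.31 and 0.92.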

How the data were processed

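RNA of 9 SKOV3 libraries was measured. The deposited table holds counts of reads per gene, which per the submitters' processing notes came from base calls by CASAVA (version not given), alignment with HISAT2 2.0.5 and counting with featureCounts 1.5.0-p3. The annotation release and the strandedness of counting are not given in the sources used here. Coordinates are those of the authors' table (GRCh38). In R 4.3.3, edgeR 4.0.16 (with limma 3.58.1) kept 16350 of 58735 genes by filterByExpr (minimum count 10, total 15), scaled libraries by TMM and fitted all 9 libraries with 1 mean per group (6 residual degrees of freedom). Genes were called at a Benjamini-Hochberg adjusted p under 0.05 over all tested genes. Centred log2 CPM used a prior count of 2. CPM per kb used the gene length that the authors' table lists. The pipeline was tested on simulated data. Alternatives were other scalings, filters and thresholds, DESeq2 1.42.0, a replicate block and leaving out libraries. The members and lists were chosen with earlier results of these data known. Named were all members, other tested keratins, overlapping genes, the 5 genes most like KRT19 (1 of them is not reported here) and, of each list of linked genes, up to 4 called genes with the smallest adjusted p. Marker genes, DSP, TGM1 and list genes whose calls changed with 1 library left out were named after their values were seen.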

Additional observations from a re-analysis of the deposited data

How the results depend on the processing

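Of 525 keratin fold changes recomputed under up to 22 alternatives, 476 kept their direction and side of the threshold, 33 lost a call, 4 gained one and 12 changed sign. The cause was not tested. The counts of keratins called ranged from 0 to 4 with the ALK inhibitor against WT, 2 to 6 in Tyr19Phe against WT and 2 to 7 in the direct contrast. They were within 1.5 times of 3, 5 and 7 in all alternatives but a log2 fold change of at least 0.5, which by its construction left 0, 2 and 2. Over all genes, that threshold left 197, 787 and 996 calls in place of 744, 2940 and 3387. Leaving out 1 library gave 2 to 4, 4 to 5 and 6 to 7 keratins, beside 491 to 738, 2180 to 3038 and 2622 to 3426 of all genes. With the DESeq2 test 3, 6 and 6 keratins were called, beside 847, 2925 and 3289 of all genes.

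The signs that changed were of KRT8 and KRT10 with the inhibitor, of KRT81 and of 1 share. KRT8 with the inhibitor against WT was 0.001639 with the DESeq2 test, 0.001851 with DESeq2 size factors, 0.00924 with upper quartile scaling, 0.02467 with library size alone, 0.001842 with only the groups compared, and -0.02368 to 0.04195 with 1 library left out. KRT10 with the inhibitor was -0.08762 to 0.172 and KRT81 in Tyr19Phe against WT (0.29, SE 0.791) -0.2159 to 0.6288 with 1 library left out. The share of KRT18 in type I with the inhibitor minus WT, -0.513 percentage points, was -1.519 to 0.02583 with 1 library left out.

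The labels do not say whether libraries with the same number were paired, and the main fit did not treat them as paired. Over 9 pairs with the same number, correlations of their deviations from the group mean were -0.0116 to 0.026. Pairs with different numbers had -0.0341 to 0.0198, and such values cannot show whether libraries were handled together. With a replicate block the counts were 3, 6 and 6, KRT7 in Tyr19Phe against WT passed at an adjusted p of 0.0392 (0.034 to 0.321 over alternatives), and KRT17 in the direct contrast missed at 0.0529 (0.00623 to 0.379). Over all genes, 818, 3076 and 3465 were called with the block.

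Leaving out both libraries with fewer genes, and canonical transcript lengths, were alternatives chosen after seeing the data. The latter moved the sizes of ratios, kept the order of the groups in each and took the KRT7 to KRT8 ratio in Tyr19Phe from 1.51 to 0.987. KRT81, at 0 to 32 counts per library, is limited by depth.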

Other observations

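Genes of other marker lists also differed between the groups. MSLN, mesothelin, had 41.7 ± 0.410 CPM (SD, n = 3) in WT, 41.9 ± 3.54 CPM with the ALK inhibitor and 13.1 ± 1.51 CPM in Tyr19Phe, and fell in Tyr19Phe by 1.67 on the log2 scale against WT (edgeR, adjusted p = 4.91e-14). COL1A1, a fibrillar collagen chain, had 104 ± 2.37, 133 ± 17.1 and 37.9 ± 7.35 CPM (SD, n = 3) in the same order and fell in Tyr19Phe by 1.46 against WT (edgeR, adjusted p = 1.04e-13). COL1A2, the other tested fibroblast marker, had a log2 fold change of -0.08 in Tyr19Phe against WT (adjusted p = 0.844). With the inhibitor against WT COL1A2 rose by 0.70 (adjusted p = 0.0210), a call kept in 5 of 9 fits with 1 library left out (up to 0.128). In the direct contrast it had -0.78 (adjusted p = 0.00198). Of the other mesothelium markers, LRRN4, the most abundant, had -0.05 (adjusted p = 0.743), and UPK3B fell by 0.73 both in Tyr19Phe (adjusted p = 0.000781) and with the inhibitor (adjusted p = 0.00321) against WT. The higher level of COL1A1 with the inhibitor (adjusted p = 0.0111) was lost without WT replicate 1 (0.0653), ALK inhibitor replicate 2 (0.147) or ALK inhibitor replicate 3 (0.0662). ERBB2 had 1800 ± 50.5 CPM (SD, n = 3) in WT, 2625 ± 8.63 CPM with the inhibitor and 1470 ± 77.5 CPM in Tyr19Phe, with no overlap between groups. Of the 5 ovarian carcinoma markers tested, 1 was lower in Tyr19Phe than in WT (ERBB2, by 0.29 on the log2 scale, adjusted p = 5.40e-08). The 2 higher were MECOM, by a log2 fold change of 0.19 (adjusted p = 0.00613), and SOX17, by 0.23 (adjusted p = 0.00610, and 0.0600 without WT replicate 3). With the inhibitor 2 were higher than in WT, ERBB2 by 0.54 (adjusted p = 2.96e-13) and MECOM by 0.52 (adjusted p = 9.84e-09). In the direct contrast 2 were lower and 1 higher in Tyr19Phe. Of all tested genes, 10.4% were lower and 7.61% higher in Tyr19Phe against WT. The shares were 2.73% and 1.82% with the inhibitor and 11.1% and 9.57% in the direct contrast. The stratified basal list had 2 of 5 genes tested, KRT5 and COL17A1, and the hair shaft list 1 of 8, KRT86.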
